A study of Mus musculus with 12 samples.

Results

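Transcripts of regulators of the bladder lining and of the Hedgehog, Wnt and Bmp signals exchanged with the tissue beneath it were followed over 1 circadian day. The genes considered were the transcription factor genes Grhl3, Elf3, Foxa1, Gata3 and Pparg, the ligand gene Shh, its receptor gene Ptch1, the target transcription factor gene Gli1, and the ligand genes Wnt4 and Bmp4. The members were all non-control array probes that carry one of these names. There were 10 such probes for 9 genes, of 41174 probes and 27544 gene names on the array. Ptch1 had 2 probes and the other 8 genes had 1 each. No probe carried the name Grhl3 or one of its synonyms in the RefSeq table used, and that gene was not analysed here.

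Total RNA of whole urinary bladder from female C57BL/6 mice was measured on 12 Agilent arrays with 1 colour (Cy3). All groups were wild type, 10 weeks old and kept in constant darkness after 2 weeks with 12 h of light and 12 h of dark a day. By their labels the groups differed in circadian time (CT) alone, at CT0, CT4, CT8, CT12, CT16 and CT20, with 2 arrays at each. The hours from CT0 to CT12 are the subjective day and the rest the subjective night. The labels do not tie an array to 1 mouse, so every p-value below measures the spread between arrays, which may be technical. The number of arrays limits the precision.

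The urothelium is the layered epithelium that seals the bladder wall against urine, and Foxa1, Gata3, Pparg, Elf3 and Grhl3 are known as regulators of its differentiation. Its basal cells make Sonic hedgehog, which binds Patched 1 on nearby stromal cells, releases Smoothened and activates the Gli factors. Ptch1 and Gli1 are themselves induced by the pathway and serve as its readouts, and stromal Wnt and Bmp ligands in turn act on the urothelial cells.

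Levels are log2 processed signals relative to the 75th percentile of the array, so 0 stands for that percentile, and levels of different probes are not comparable. All 10 member probes were well above background on all 12 arrays. Between 64.2% and 70.2% of spots per array were well above background, and no spot was saturated. Both arrays of the same time had an r of 0.984 to 0.993 across genes, which are not independent replicates. CT0 and CT4 shared slide 1, CT8 and CT12 slide 2, and CT16 and CT20 slide 3. All 16 urothelium markers (Upk1a, Upk2, Krt5, Krt20 and others), all 10 smooth muscle markers and all 10 fibroblast markers were well above background on every array, so the defining markers of bladder tissue were present. Of the adipocyte markers 8 of 10 were also detected on every array, and the mean of that list spanned -1.87 to 1.30 around its overall mean (log2). The hepatocyte list, with 7 of 10 markers on every array, spanned -2.29 on CT20 array 1 to 2.67 on CT20 array 2. Ucp1 was well above background on 4 arrays and Lep on 11. With all arrays 0 of 9 members were called. Fits without the 3 arrays highest in either list have fewer arrays, so a count of 0 there could not show whether these lists matter to the members. In RNA of whole tissue, fewer cells of a type and less RNA per cell cannot be told apart.

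No member gene passed the test for a 24 h wave. A cosine of 24 h was fitted to the 12 arrays in limma, and 0 of 9 member genes had an adjusted p under 0.05, against 0.62% of the 18394 genes tested. At an unadjusted p under 0.05 there was 1 of 9, Ptch1, against 15.7% of all genes. The median ratio of fitted peak to fitted trough was 1.22-fold over the members and 1.19-fold over all genes tested. The upper 95% bound of that ratio ran from 1.35-fold for Gata3 to 2.35-fold for Ptch1, and waves within these bounds could not be told from none at this number of arrays. A fit of the 6 times with no assumed shape also called 0 of 9 (0.0924% of all genes), and 0 of 9 had an unadjusted p under 0.05 (19% of all genes). With slide as a fixed block the wave was called in 0 of 9 members and in 2 genes of all, and the Ptch1 amplitude of 0.36 (log2) was then 0.48 (adjusted p = 0.523). The smallest member p-values of the fit over the 6 times were those of Bmp4 (adjusted p = 0.274) and Wnt4 (adjusted p = 0.302).

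**Figure D1:**
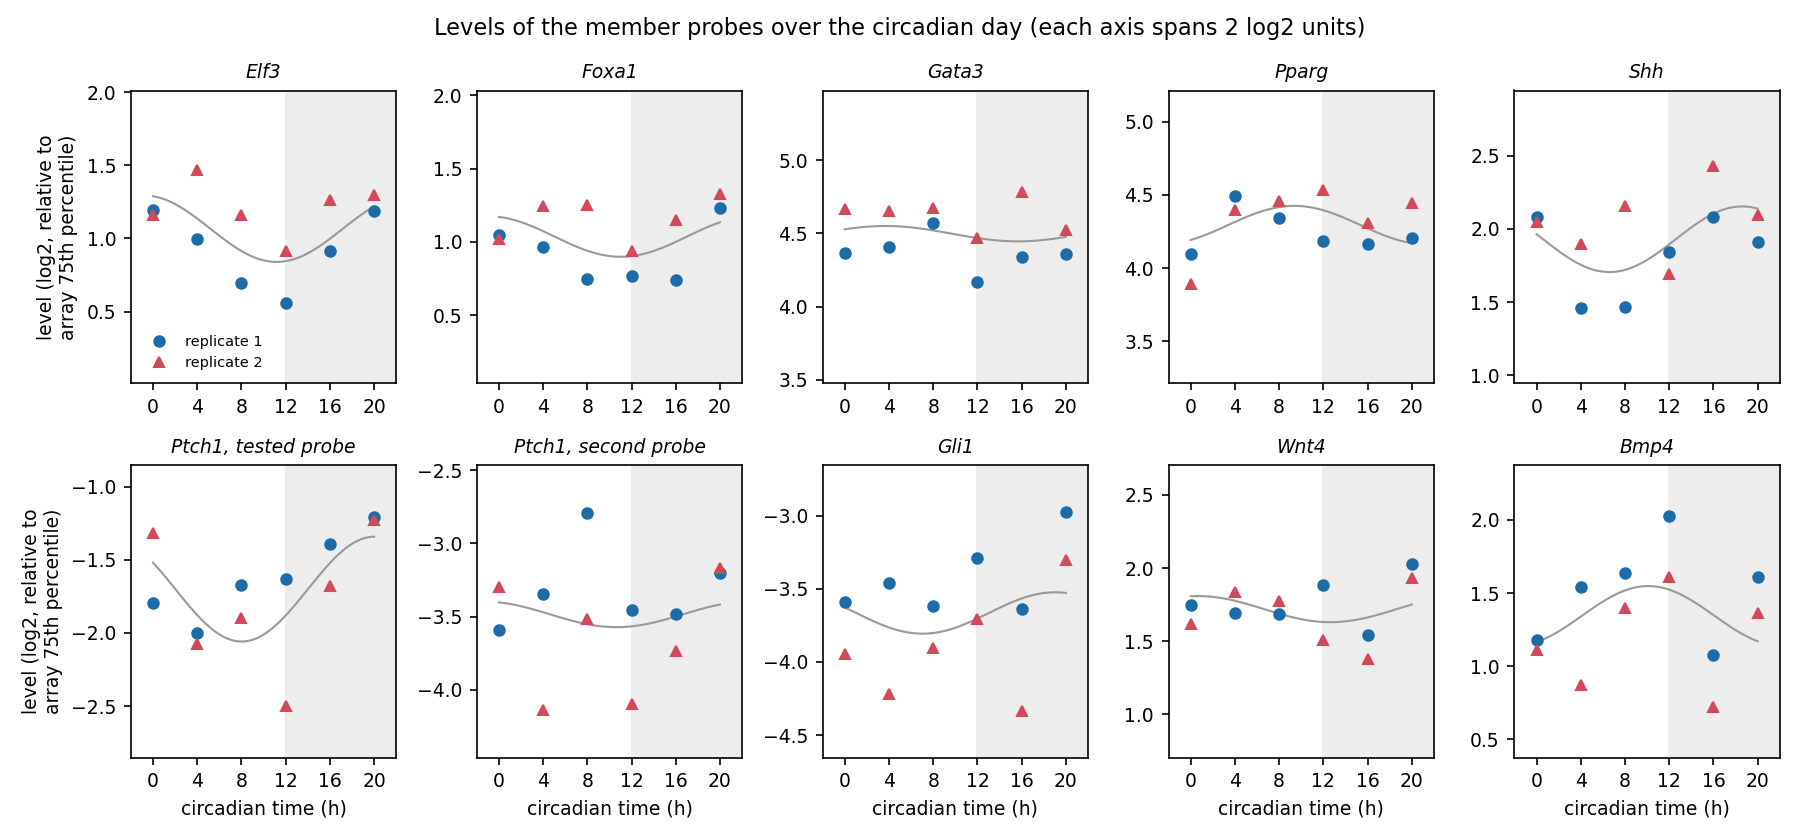
Level of each member probe on each of the 12 arrays (log2, relative to the 75th percentile of the array) against circadian time in hours, with the 2 arrays of a time as a circle and a triangle, the fitted 24 h wave as a grey line and the subjective night shaded. Every axis spans 2 log2 units; the arrays of times next to each other in the order of levels overlap for most pairs of times, and the Ptch1 arrays at CT20 are the highest of the tested probe.

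**Figure D2:**
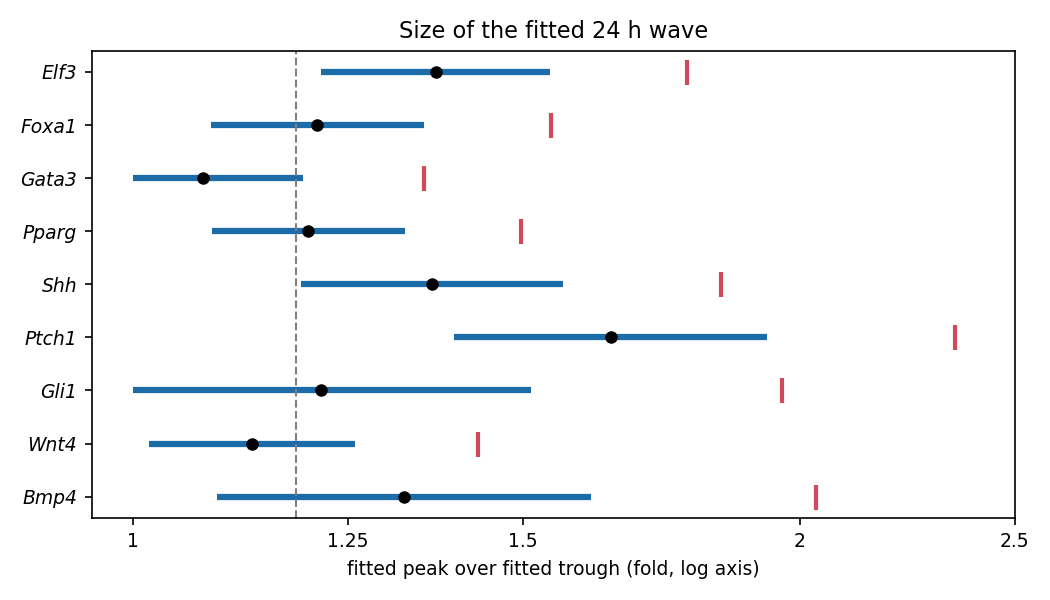
Ratio of fitted peak to fitted trough of the 24 h wave (fold, log axis) for the 9 member genes over 12 arrays, with the ratio as a point, the range for 1 SE of the amplitude as a blue bar and the upper 95% bound as a red tick. The dashed line is the median over all genes tested, 1.19-fold; Ptch1 has the largest fitted ratio, 1.64-fold, and its test missed the threshold (adjusted p = 0.281).

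Among the urothelial regulators, Elf3 encodes an ETS factor of differentiating epithelia (probe on chromosome 1, 135143536 to 135143595, minus strand, mm7). Its level was 1.19 and 1.16 on the 2 arrays at CT0, 1.0 and 1.47 at CT4, 0.70 and 1.16 at CT8, 0.56 and 0.92 at CT12, 0.91 and 1.26 at CT16, and 1.19 and 1.29 at CT20. Time means ran from 0.74 at CT12 to 1.24 at CT20, a range of 0.50 beside a pooled SD within times of 0.24. In the order CT20, CT4, CT0, CT16, CT8, CT12 the arrays of all 5 neighbouring pairs of times overlapped. The fitted wave was 1.37-fold (1.22 to 1.54 for 1 SE, up to 1.78 at the 95% bound) with a peak at CT23.2 ± 1.44 h (SE), and it missed the threshold (adjusted p = 0.351).

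Foxa1, which encodes a forkhead factor that opens chromatin in epithelial cells (chromosome 12, 55476083 to 55476142, minus strand, mm7), had a similar profile. Its level was 1.05 and 1.02 at CT0, 0.96 and 1.25 at CT4, 0.75 and 1.25 at CT8, 0.77 and 0.94 at CT12, 0.74 and 1.15 at CT16, and 1.23 and 1.33 at CT20. Both CT20 arrays lay above both CT16 arrays, and in the order CT20, CT4, CT0, CT8, CT16, CT12 all neighbours overlapped. The fitted wave was 1.21-fold, up to 1.54 at the 95% bound, at CT23.0 (adjusted p = 0.562).

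Because Elf3 and Foxa1 moved together across the arrays (r = 0.87), the 250 bases before their RefSeq gene starts are shown, on GRCm38.p6 and on the minus strand that both genes use. Capitals in the Foxa1 sequence mark a forkhead motif, TGTTTAC read on the other strand, that begins at base -141 from the start; the Elf3 window held none of the motifs searched and is in lower case throughout.
Elf3 (chr1:135258473-135258722): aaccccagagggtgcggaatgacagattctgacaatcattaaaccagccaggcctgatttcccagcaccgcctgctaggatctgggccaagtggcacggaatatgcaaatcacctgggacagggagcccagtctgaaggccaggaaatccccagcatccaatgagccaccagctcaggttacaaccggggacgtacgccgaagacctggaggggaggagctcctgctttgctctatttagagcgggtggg
Foxa1 (chr12:57546112-57546361): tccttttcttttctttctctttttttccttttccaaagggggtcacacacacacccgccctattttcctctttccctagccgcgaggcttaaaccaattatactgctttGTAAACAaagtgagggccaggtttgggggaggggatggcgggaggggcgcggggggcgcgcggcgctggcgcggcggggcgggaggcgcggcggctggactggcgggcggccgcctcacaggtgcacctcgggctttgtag
The RefSeq table held windows from 250 bases before to 50 after the start for 8 of the 10 listed genes, Grhl3 among them. It held none for Shh or Gli1, so their promoters were not searched for any motif. The motifs searched on both strands of these 300-base windows were the forkhead motif TGTTTAC (in 3.65% of all 32851 windows; of the members in Foxa1), the clock E-box CACGTG (7.15%; in Bmp4), the D-box TTATGTAA (0.938%; in no member) and the GLI motif GACCACCCA (0.253%; in no member). No member window held more than 1 of the motifs, and a match describes letters, not a bound site.

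Gata3 encodes a zinc finger factor of luminal urothelium (chromosome 2, 9796514 to 9796573, minus strand, mm7). Its level was 4.37 and 4.67 at CT0, 4.41 and 4.65 at CT4, 4.57 and 4.67 at CT8, 4.17 and 4.47 at CT12, 4.34 and 4.78 at CT16, and 4.36 and 4.53 at CT20. It was the flattest member over the day: time means spanned 0.30, the arrays of all neighbouring times in the order of levels overlapped, and the fitted wave was 1.08-fold, at most 1.35-fold at the 95% bound (adjusted p = 0.895). Both CT12 arrays lay below both CT8 arrays (a difference of -0.30, 95% interval -0.73 to 0.13, adjusted p = 0.528).

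Pparg encodes the nuclear receptor PPAR gamma, which drives urothelial maturation and is also the master regulator of fat cells (chromosome 6, 115515909 to 115515968, plus strand, mm7). Its level was 4.09 and 3.89 at CT0, 4.49 and 4.40 at CT4, 4.34 and 4.46 at CT8, 4.19 and 4.54 at CT12, 4.16 and 4.31 at CT16, and 4.20 and 4.44 at CT20. The CT0 arrays were the lowest of the 12, below both arrays of every other time. The step from CT0 to CT4 was 0.45 (95% interval 0.12 to 0.79), a 1.37-fold difference with adjusted p = 0.478. The fitted wave was 1.20-fold, up to 1.50, at CT9.4 (adjusted p = 0.537).

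Shh is the Hedgehog ligand gene of the urothelium (chromosome 5, 27489898 to 27489957, minus strand, mm7). Its level was 2.08 and 2.05 at CT0, 1.46 and 1.90 at CT4, 1.47 and 2.16 at CT8, 1.84 and 1.69 at CT12, 2.08 and 2.43 at CT16, and 1.91 and 2.09 at CT20. Both CT4 arrays lay below both CT0 arrays, and in the order CT16, CT0, CT20, CT8, CT12, CT4 all neighbours overlapped. The CT8 arrays lay furthest apart, with an SD of 0.49, beside a range of 0.58 between the time means. The fitted wave was 1.36-fold, up to 1.84, at CT18.6 (adjusted p = 0.425).

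Ptch1, the Hedgehog receptor gene, had the largest fitted wave of the members on its brighter probe (chromosome 13, 61331255 to 61331314, minus strand, mm7), which represents the gene in the tests. Its level was -1.80 and -1.32 at CT0, -2.0 and -2.08 at CT4, -1.67 and -1.90 at CT8, -1.63 and -2.50 at CT12, -1.39 and -1.68 at CT16, and -1.21 and -1.23 at CT20. The CT20 arrays were the highest of the 12, above both CT16 arrays, and both CT8 arrays lay above both CT4 arrays. The fitted ratio was 1.64-fold (1.40 to 1.93 for 1 SE) at CT20.0 ± 1.25 h, with adjusted p = 0.281. With slide as a fixed block the fitted peak was at CT23.1. Each slide held 2 neighbouring times, so time and slide cannot be fully told apart. Over 26 alternative fits the unadjusted p was under 0.05 in 16 and the adjusted p ran from 0.225 to 0.564. The unadjusted p was above 0.05 without CT20 array 1 or CT20 array 2. It was also above 0.05 without CT0 array 2, CT4 array 1 or CT16 array 1, so its loss was not particular to CT20. Over the alternatives the amplitude ran from 0.28 to 0.48 (log2).

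The other Ptch1 probe (chromosome 13, 61333864 to 61333923, minus strand, mm7) gave a smaller wave. Its level was -3.59 and -3.30 at CT0, -3.35 and -4.14 at CT4, -2.79 and -3.52 at CT8, -3.45 and -4.10 at CT12, -3.48 and -3.73 at CT16, and -3.20 and -3.17 at CT20. Its highest array was at CT8 rather than CT20, and its fitted wave was 1.13-fold, up to 1.81, at CT22.6 (adjusted p = 0.929 over all probes). With every probe tested on its own, 0 of 10 member probes passed (0.801% of 27699 probes) and 1 of 10 had an unadjusted p under 0.05 (16.7% of all probes), and the brighter Ptch1 probe had an adjusted p of 0.261. Across the 12 arrays the Ptch1 probes correlated at r = 0.67 (permutation p = 0.0163; Spearman rho = 0.73, permutation p = 0.00943), and at 0.82 without the 2 arrays farthest from the median (CT4 array 2 and CT8 array 1).

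Gli1 encodes the Gli factor that the pathway induces (chromosome 10, 126832331 to 126832390, minus strand, mm7). Its level was -3.59 and -3.94 at CT0, -3.46 and -4.22 at CT4, -3.62 and -3.90 at CT8, -3.29 and -3.71 at CT12, -3.64 and -4.34 at CT16, and -2.97 and -3.31 at CT20. The time mean was highest at CT20 and lowest at CT16, and all neighbours in the order of levels overlapped. The pooled SD within times was 0.36, the second largest among the probes, and the fitted wave was 1.22-fold, up to 1.96, at CT19.0 (adjusted p = 0.835).

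Wnt4, a Wnt ligand gene (chromosome 4, 136674216 to 136674784, plus strand, mm7), had the smallest spread within times, a pooled SD of 0.14. Its level was 1.75 and 1.62 at CT0, 1.69 and 1.84 at CT4, 1.68 and 1.78 at CT8, 1.89 and 1.51 at CT12, 1.54 and 1.38 at CT16, and 2.03 and 1.93 at CT20. The CT20 arrays were the highest of the 12, and both CT16 arrays lay below both CT0 arrays. Its lowest and highest times are neighbours in the day, and the fitted 24 h wave was 1.13-fold, up to 1.43, at CT0.6 (adjusted p = 0.750).

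Bmp4, a Bmp ligand gene of the bladder stroma (chromosome 14, 41704207 to 41704266, minus strand, mm7), had the widest range of time means, 0.92. Its level was 1.18 and 1.11 at CT0, 1.54 and 0.87 at CT4, 1.63 and 1.39 at CT8, 2.03 and 1.61 at CT12, 1.08 and 0.72 at CT16, and 1.61 and 1.36 at CT20. Means ran from 0.90 at CT16 to 1.82 at CT12, and both CT16 arrays lay below both CT0 arrays. The fitted wave was 1.33-fold, up to 2.03, at CT10.1 (adjusted p = 0.654).

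Bmp4 was the member whose promoter window held the E-box, the motif that the clock activators bind, so its 250 bases before the start are shown (GRCm38.p6, minus strand) with the E-box in capitals. It begins at base -188 from the start.
Bmp4 (chr14:46390670-46390919): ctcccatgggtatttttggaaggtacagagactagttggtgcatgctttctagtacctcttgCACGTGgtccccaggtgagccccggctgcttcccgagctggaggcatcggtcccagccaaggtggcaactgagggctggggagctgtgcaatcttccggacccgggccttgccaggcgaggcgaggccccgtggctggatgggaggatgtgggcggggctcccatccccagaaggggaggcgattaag
The wave of Bmp4 did not pass the test, and 7.15% of all windows held the same letters.

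Within slides, the step from CT16 to CT20 held the largest differences among the members. Both times of each step were on the same slide. Both CT20 arrays lay above both CT16 arrays for 5 of 9 members, Foxa1, Ptch1, Gli1, Wnt4 and Bmp4, against 25.3% of all genes, and below for 0 of 9, against 27.5%. No member passed the limma test of the step (0 of 9; 0.00544% of all genes), and 3 of 9 had an unadjusted p under 0.05 (14.1% of all genes), all 3 higher at CT20 (7.16% of all genes). Wnt4 was 0.52 higher at CT20 (log2, 95% interval 0.21 to 0.84, 1.44-fold, adjusted p = 0.197). Gli1 was 0.85 higher (0.10 to 1.59, 1.80-fold, adjusted p = 0.307). Bmp4 was 0.58 higher (0.02 to 1.15, 1.50-fold, adjusted p = 0.341). The intervals of Ptch1 (0.32, -0.32 to 0.96) and Foxa1 (0.34, -0.12 to 0.79) included 0, and Shh had a difference of -0.25 (-0.82 to 0.31).

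The Wnt4 step had an unadjusted p under 0.05 in all 24 alternative fits, that of Gli1 in 21 and that of Bmp4 in 12, and in none of them was an adjusted p under 0.05. The Gli1 step was 0.50 without CT16 array 2 and 0.68 without CT20 array 1, with an unadjusted p above 0.05 in both, and the Bmp4 step was 0.41 and 0.46. With normexp background correction, and in the authors' deposited table, the Gli1 step was 0.43, the lowest value over the alternatives. With the mean of the urothelium markers as a covariate the steps of Wnt4, Gli1 and Bmp4 were 0.66, 1.25 and 0.92, and with that of the fibroblast markers 0.49, 0.63 and 0.44. Marker levels also differed over this step. Of 16 urothelium markers 10 were higher without overlap at CT20 and 1 was lower. Of 10 adipocyte markers 1 was higher and 8 were lower, of 10 smooth muscle markers 2 and 3, and of 10 fibroblast markers 1 and 0. Over all genes 25.3% were higher and 27.5% lower, so the arrays differed in more than these members.

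**Figure D3:**
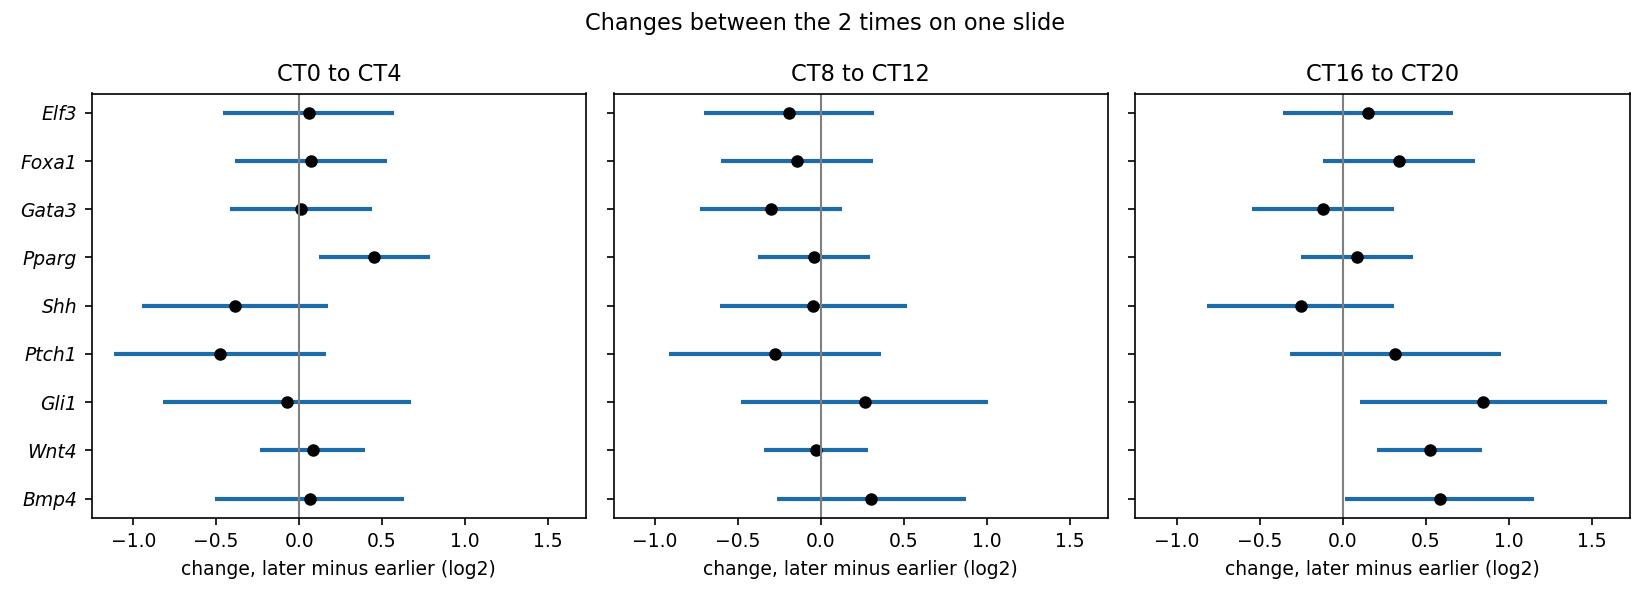
Change of each member gene between the 2 times on the same slide (log2, later minus earlier), as a point with its 95% interval from the limma fit over the 6 times. From CT16 to CT20 the intervals of Wnt4, Gli1 and Bmp4 lie above 0, and from CT0 to CT4 that of Pparg; none passed after adjustment over all genes.

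From CT0 to CT4 no member passed (0 of 9; 0% of all genes), and 1 of 9 had an unadjusted p under 0.05, Pparg (9.27% of all genes), which was higher at CT4 (3.51% of all genes). Without overlap, Pparg was higher at CT4 (1 of 9; 16.4% of all genes) and Shh and Ptch1 were lower (2 of 9; 22.2%), with differences of -0.39 (-0.95 to 0.18) and -0.48 (-1.12 to 0.16). The Pparg step had an unadjusted p under 0.05 in 20 of 24 alternatives. Those without it include the fits without CT0 array 2 (a step of 0.35), without CT4 array 1, and without the 3 arrays highest in adipocyte markers. The centred mean of the adipocyte list was 0.24 and -1.87 on the CT0 arrays and 1.22 and -0.17 on the CT4 arrays (log2), with overlap, and that of the smooth muscle list was -0.02 and 0.41, then -0.04 and -0.11. With the fibroblast mean as a covariate the Pparg step was 0.30 and with the urothelium mean 0.34. Without the 3 arrays highest in adipocyte markers, which left 1 array at CT4, it was 0.41. The part of smooth muscle RNA in the Pparg step was not tested. From CT8 to CT12 no member passed (0 of 9; 0%) and none had an unadjusted p under 0.05 (12.9% of all genes, 6.07% with the later time higher). Only Gata3 differed without overlap there, lower at CT12 (1 of 9; 23.9% of all genes), and 0 of 9 were higher (20.2%).

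Repeated spots gave the spread within an array. Shh, Pparg, Gli1, Bmp4 and the dimmer Ptch1 probe each had 10 spots per array. The pooled SD between the spots of an array was 0.04 for Pparg, 0.06 for Bmp4, 0.08 for Shh, 0.09 for Ptch1 and 0.12 for Gli1 (log2). The SD between arrays was 3.21 times that value for Gli1 and 6.68 times for Bmp4, the ends of the range. Between 7 and 10 Ptch1 spots and 9 and 10 Gli1 spots were used, after those marked as outliers were dropped.

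Relations between ligand, receptor and targets, and between the urothelial factors, did not pass the threshold. Of 10 pairs listed for the Hedgehog axis and the urothelial factors, the 9 without Grhl3 were correlated over the 12 arrays, with 100000 permutations and Benjamini-Hochberg adjustment over the 9. None had an adjusted p under 0.05, and 1 had an unadjusted p under it. That pair was Shh with Bmp4, r = -0.63 (permutation p = 0.0266, adjusted p = 0.240; rho = -0.60, permutation p = 0.0431, adjusted p = 0.388), with r = -0.65 without CT4 array 1 and CT8 array 1 and -0.63 with slide means removed. Shh and its receptor gene Ptch1 had r = 0.36 (adjusted p = 0.447), which was 0.03 with slide means removed. Shh and Gli1 had r = -0.40 and Ptch1 and Gli1 r = 0.39 (adjusted p = 0.447 for both). Foxa1 and Gata3 had r = 0.49 (adjusted p = 0.447), and Pparg had r of 0.05 to 0.24 with Elf3, Foxa1 and Gata3.

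Elf3 and Foxa1 were the closest pair when all 36 pairs were computed, a family added after the data had been seen. Their r was 0.87 (permutation p = 0.000160, adjusted over 36 pairs p = 0.00576; rho = 0.87, permutation p = 0.000330, adjusted p = 0.0119). It was 0.82 without CT8 array 1 and CT12 array 1 and 0.91 with slide means removed, and 0.84 to 0.90 with each array left out. With the means of the replicate numbers removed r was 0.81 and missed the threshold (adjusted p = 0.0508), the 1 of 18 alternatives in which the call was lost. Elf3 with Foxa1 was the 1 pair of 36 past the threshold, and 9 pairs had an unadjusted p under 0.05. Points share the scaling of their array.

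Pairs of Gli1 and Bmp4 came next and missed the threshold. Gli1 and Bmp4 had r = 0.76 (adjusted p = 0.0523; rho = 0.71, adjusted p = 0.147), 0.68 without CT16 array 2 and CT20 array 1. With slide means removed their r was 0.96 (adjusted p = 0.000360). With replicate-number means removed their r was 0.67 and did not pass (adjusted p = 0.168). Once such means were removed, values were still permuted over all arrays and not within slides or numbers. The p-values with slide or replicate-number means removed can therefore be too small. Gata3 and Gli1 had r = -0.78 (adjusted p = 0.0511, with rho = -0.78 and adjusted p = 0.0806), and -0.69 without CT12 array 1 and CT16 array 2. Their r was -0.80 with slide means removed (adjusted p = 0.0242). It was -0.61 with replicate-number means removed (adjusted p = 0.215) and -0.63 with median scaling (adjusted p = 0.176). Elf3 and Bmp4 had r = -0.74 (adjusted p = 0.0523, with rho = -0.63 and adjusted p = 0.234), and -0.50 without CT8 array 1 and CT12 array 1. Their r was -0.55 with slide means removed (adjusted p = 0.217) and -0.65 with replicate-number means removed (adjusted p = 0.168). Gli1 and Wnt4 had r = 0.65 (adjusted p = 0.129; rho = 0.65, adjusted p = 0.234), which was 0.24 without CT16 array 2 and CT20 array 1 and so rested on those arrays. The number of pairs past the threshold was 1 to 5 with each array left out: it was 2 without CT4 array 2, 4 without CT20 array 1, and 5 without CT16 array 1 or CT20 array 2.

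**Figure D4:**
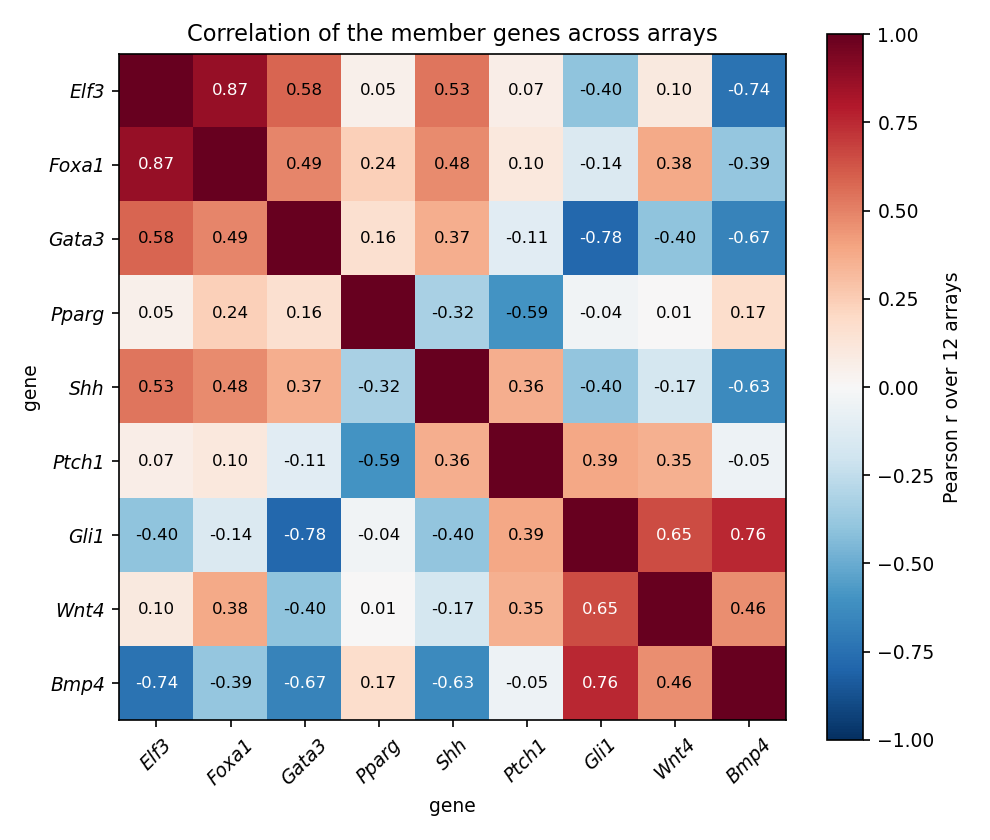
Pearson r between the levels of the 9 member genes over the 12 arrays, from blue (-1) to red (1), with r printed in each cell. Elf3 and Foxa1 share the highest value, 0.87. Gata3, Elf3, Shh and Foxa1 have negative values with Gli1 and Bmp4, those of Foxa1 being -0.14 and -0.39.

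Marker levels moved with several members. Each member was set against the means of 4 marker lists, 36 relations that were also added after the data had been seen, and 2 had an adjusted p under 0.05. Foxa1 followed the urothelium markers with r = 0.77 (permutation p = 0.00176, adjusted p = 0.0317; rho = 0.75, adjusted p = 0.0852), 0.70 without CT12 array 1 and CT20 array 2. With slide means removed r was 0.73 (adjusted p = 0.0583), and with each array left out 4 of 12 fits passed, with an adjusted p of 0.00756 to 0.102. Elf3 had r = 0.74 with the same list (adjusted p = 0.0557; rho = 0.71, adjusted p = 0.0852), and 0.49 without those 2 arrays. The urothelium mean itself was lowest on CT12 array 1 (-0.41) and highest on CT20 array 2 (0.26). With that mean as a covariate, 0 of 9 members had a wave past the threshold.

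Pparg ran against the smooth muscle markers with r = -0.80 (permutation p = 0.00151, adjusted p = 0.0317; rho = -0.72, adjusted p = 0.0852), -0.60 without CT0 array 2 and CT8 array 2. With slide means removed r was -0.77 (adjusted p = 0.0448, from permutations across slides, which can be too small). With each array left out 3 of 12 fits passed, with the largest adjusted p, 0.177, without CT0 array 2. Pparg had r = 0.73 with the adipocyte markers (adjusted p = 0.0557; rho = 0.50, adjusted p = 0.359), which was 0.32 without CT0 array 2 and CT12 array 2 and so rested on those arrays. Ptch1 had r = -0.73 with the adipocyte markers (adjusted p = 0.0557; rho = -0.73, adjusted p = 0.0852), and -0.60 without the same 2 arrays. Bmp4 had r = 0.65 with the fibroblast markers (adjusted p = 0.132; rho = 0.57, adjusted p = 0.285) and Gata3 -0.63 (adjusted p = 0.132; rho = -0.51, adjusted p = 0.359). Elf3 had r = -0.62 with the fibroblast markers (adjusted p = 0.132, with rho = -0.64 and adjusted p = 0.177). Ptch1 had r = 0.62 with the smooth muscle markers (adjusted p = 0.132, with rho = 0.72 and adjusted p = 0.0852). Shh, Gli1 and Wnt4 had no relation with an unadjusted p under 0.05 to any of the 4 lists, with r between -0.43 and 0.47.

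**Figure D5:**
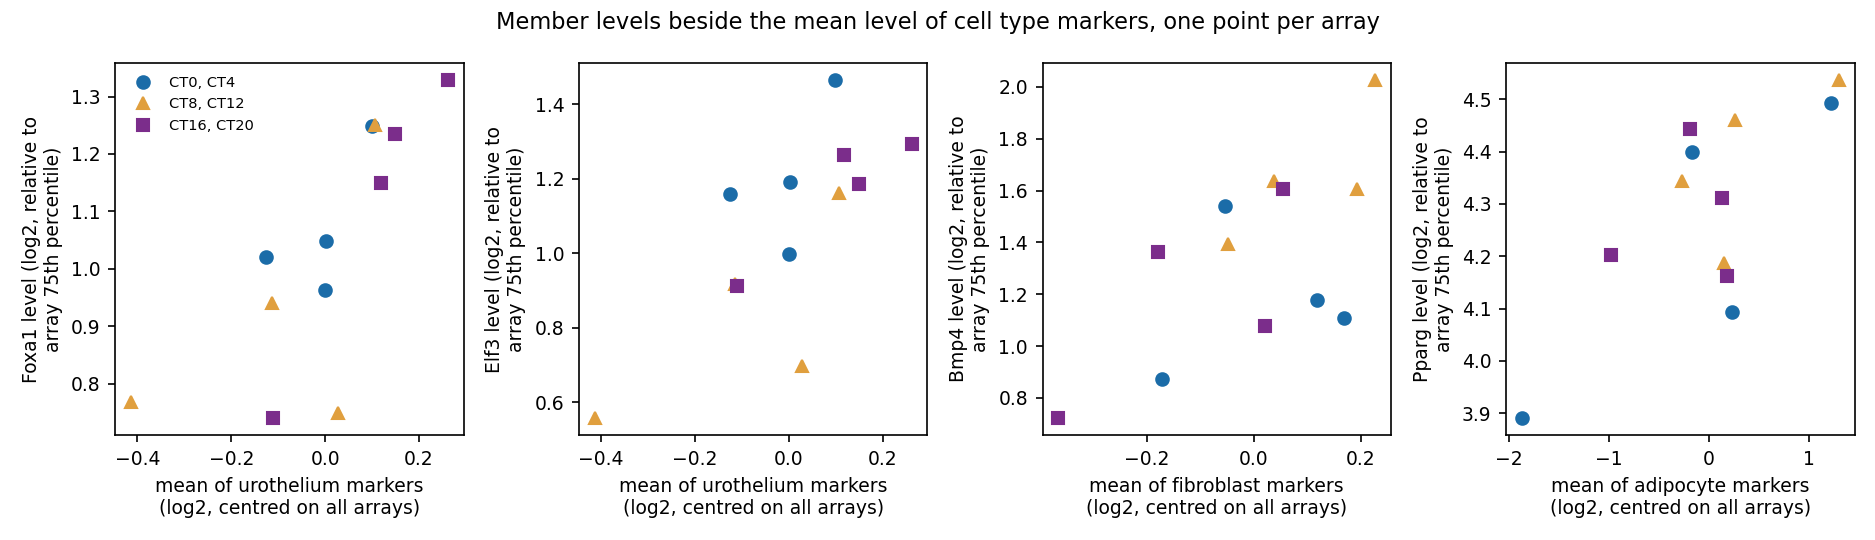
Level of Foxa1, Elf3, Bmp4 and Pparg (log2, relative to the 75th percentile of the array) against the mean level of a marker list (log2, centred on all arrays), with 1 point per array and the slide shown by shape and colour. Foxa1 and Elf3 increase with the urothelium mean (r = 0.77 and 0.74); the Pparg plot has 1 array at the far left, CT0 array 2, on which its relation rests in part.

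The genes whose levels ran closest to each member across the arrays were found among 13601 named genes that every array detected, and r is a description of these 12 arrays. For Elf3 they were Ddn (r = 0.95) and Myo5b (0.93), and for Foxa1 Trim29 (0.95) and Epb41l5 (0.94). For Shh they were Akap9 (0.95) and Epcam (0.93), the latter an epithelial adhesion gene on the urothelium list. With the mean of that whole list Shh had r = 0.26 (permutation test, adjusted p = 0.748). For Gata3 they were Wdr46 (0.93) and Tnfrsf4 (0.91), and for Pparg Ptpn4 (0.88) and Tmem143 (0.87). For Ptch1 they were Dpy19l4 (0.89) and Igf2bp2 (0.87). Gli1 ran closest to Reep5 (0.89) and Notum (0.88), a gene for a secreted Wnt inhibitor, and Wnt4 to Zfp518b (0.88) and Gpnmb (0.87). Bmp4 ran closest to Mmp2 (0.94), which encodes a matrix metalloproteinase, and P3h3 (0.93), which encodes a collagen prolyl hydroxylase.

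Few other genes of the same pathways had a 24 h wave. Of 26 tested Hedgehog genes 2 passed the limma test (0.62% of all genes), and 6 had an unadjusted p under 0.05 (23.1%, against 15.7% of all genes). Evc, whose product helps Smoothened signal at the primary cilium, had a 1.67-fold wave at CT5.8 ± 0.49 h (1.57 to 1.79 for 1 SE, adjusted p = 0.0159). Its level was -3.40 and -3.55 at CT4 and -4.20 and -4.33 at CT16. Disp1, whose product releases Hedgehog ligand from the cell, had a 1.52-fold wave at CT10.6 (adjusted p = 0.0482), and its other probe a 1.28-fold wave with an unadjusted p above 0.05. The Evc call was lost without CT4 array 1 (adjusted p = 0.0564) or CT16 array 1 (0.0592), and with slide as a random block (0.0761) or a fixed block (0.328). It was also lost without the 3 arrays highest in hepatocyte markers (0.130) and without the 3 highest in adipocyte markers (0.287), and it was kept in the other 20 of 26 alternatives. The Evc amplitude was 0.37 (log2), and it was 0.20 with normexp background correction and 0.18 in the authors' deposited table, both past the threshold. The Disp1 call was lost with each of the 12 arrays left out (adjusted p = 0.0560 to 0.120) and kept in 5 of 26 alternatives.

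Of 59 tested Wnt genes 1 passed, Gsk3b, and 13 had an unadjusted p under 0.05 (22%). Gsk3b encodes the kinase that marks beta-catenin for destruction, and it had a 1.49-fold wave at CT4.0 ± 0.61 h (adjusted p = 0.0461). Its other probe had a 1.38-fold wave at CT4.5 (adjusted p = 0.186 over all probes), and the call was lost with each of the 12 arrays left out (adjusted p = 0.0502 to 0.127) and kept in 5 of 26 alternatives. The median fitted ratio was 1.22-fold for the Wnt list and 1.20-fold for the Hedgehog list, beside 1.19-fold over all genes tested.

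None of 43 tested Bmp genes passed and 13 had an unadjusted p under 0.05 (30.2%, against 15.7% of all genes), with a median fitted ratio of 1.31-fold. The smallest p-values were those of Id3, a Bmp target that holds back differentiation (1.98-fold at CT11.8, adjusted p = 0.0932), and the ligand gene Gdf5 (2.90-fold at CT21.7, adjusted p = 0.102). Gdf5 had -2.57 and -0.93 on the 2 CT0 arrays, and without CT0 array 2 its adjusted p was 0.0243, the lowest of a range up to 0.464 over the alternatives. None of 33 other urothelial regulators passed, 3 had an unadjusted p under 0.05 (9.09%), and the median ratio was 1.19-fold. The smallest p-values there were those of Ehf, an ETS factor related to Elf3 (1.41-fold at CT2.9, adjusted p = 0.159), and Id2 (1.30-fold at CT11.7, adjusted p = 0.251). The other probes of Ehf disagreed on the time, with fitted peaks at CT3.8 (1.48-fold) and CT20.3 (1.29-fold), and neither passed (adjusted p = 0.104 and 0.281 over all probes).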

How the data were processed

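Labelled total RNA of 12 bladder samples was hybridised with the Agilent one-color Quick Amp kit, per the labels' protocols. Agilent Feature Extraction 10.5.1.1 made the deposited intensity values, per the file headers, together with marks for spots that were well above background, outliers or saturated. The authors' deposited value table holds log2 values for 27883 probes with its normalization not given in the sources used here (the submitters' processing notes name R 2.8.1), and it served as an alternative.

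Log2 processed intensity of 43379 non-control spots was averaged per probe without outlier spots, and the array's 75th percentile was subtracted. Of 41174 probes, 271 lacked a value on some array and were left out. RefSeq names came by accession for 22790 probes, by symbol for 6627 and by synonym for 3090, and 8396 kept the file's name. The brightest probe stood for a name, and the 18394 names detected (well above background) on 4 or more of the 12 arrays were tested. Probe positions are on mm7, per the file headers; exon and UTR annotation of mm7 was not used here.

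The 24 h cosine fit (9 residual degrees of freedom) and the fit over 6 times with steps within slides (6 residual degrees of freedom) used limma 3.58.1 in R 4.3.3 with Benjamini-Hochberg adjustment over all genes tested and a threshold of 0.05. Correlations used scipy 1.17.1 and two-sided permutations. These ran over all arrays also where slide or replicate-number means had been removed, so p-values and counts of those settings can be too favourable. The scripts were tested on simulated data. Groups came from the labels of each sample; the design text of the series omits CT16, which the labels of 2 samples give. Named were all members, the pathway genes that passed the wave test or else the 2 of smallest p in a list, and the 2 closest genes by r for each member. The members and lists were chosen with earlier results of these data known. Alternatives covered background correction, scaling, the filter, slide and replicate blocks, the variance prior, each array left out, and, added after the data were seen, marker covariates and arrays high in hepatocyte or adipocyte markers left out.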

Additional observations from a re-analysis of the deposited data

How the results depend on the processing

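Under the alternatives 197 counts of members, or of their pairs and marker relations, past the adjusted threshold were recomputed. Of these, 176 stayed at or near the main count. Among them were all 141 for alternatives listed in advance, where the count stayed at 0 in the wave, any-difference, step and 9-pair tests. A count of 0 cannot fall, and several alternatives used fewer arrays. This agreement therefore does not show that the values of single members were stable. The 21 counts that moved belong to the correlation families added after the data had been seen. The count of marker relations past the threshold was 2; it was 4 with normexp correction, 4 with quantile normalisation, 0 with median scaling, 5 in the authors' table, 4 with replicate-number means removed, and 0 to 4 with each array left out. The count among all 36 pairs was 1; it was 4 with slide means removed, 0 with replicate-number means removed, and 1 to 5 with each array left out. The cause was not tested.

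Replicate numbers are shared across times in the labels. Deviations from the time means correlated over 0.1 in 10 of 15 pairs of times (-0.20 to 0.44, median 0.17). Arrays with the same number may thus share some variation, and its source was not tested. The labels do not say what the numbers stand for, so the main fits did not pair the samples by them. With the replicate number as a block, 0 members were called; the smallest member adjusted p was 0.196 for the wave, 0.133 for any difference and 0.129 for CT16 to CT20.

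The number of genes called for a wave over all genes, 114, was 62 with median scaling, 171 in the authors' table, 50 with no filter, 28 with the slides as random effects, 2 with fixed slide terms, 18 or 11 after dropping the 3 arrays with most hepatocyte or adipocyte marker signal, and 42 to 104 with each array left out. The number for any difference, 17, was 52 with normexp correction, 0 with slide as a fixed block and 7 to 137 with each array left out. Slide as a random block could not be fitted for the 6 times, since each time lies on 1 slide. With 2 arrays per time, waves below the 95% bounds of the fits could not be told from none.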

Other observations

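The 2 arrays of a time lay on the same side of each other for some members, a pattern noticed after the data had been seen. Array 1 lay above array 2 at 6 of 6 times for Gli1 and for Bmp4, at 5 for Ptch1 and at 4 for Wnt4. It lay above at 2 of 6 times for Pparg and Shh, at 1 for Elf3 and Foxa1, and at 0 for Gata3. Of all 18394 genes tested, 8.17% had the same array above the other at all 6 times. The labels do not say what a replicate number stands for.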
